A study of Mus musculus with 26 samples.

Results

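A set of 10 genes that answer to Wnt signalling or mark crypt stem cells, out of 35975 genes in the deposited tables, was followed through the azoxymethane (AOM)–dextran sodium sulfate (DSS) model of colitis-driven colon cancer. The genes were taken by symbol, and the estimated counts of all transcripts of each gene were added up: *Lgr5*, *Ascl2*, *Prox1*, *Axin2*, *Nkd1*, *Rnf43*, *Znrf3*, *Notum*, *Wif1* and *Apcdd1*. All 10 were found and all 10 passed the filter on low counts. The 26 libraries came from distal colon biopsies, taken where tumours form, of wild-type male C57BL/6J mice of about 10 weeks at the start, fed a standard diet or a diet with GW3965, a synthetic agonist of the liver X receptors. Mice at days 22, 43 and 70 had received 1 injection of AOM, a procarcinogen, at 10 mg per kg and up to 3 cycles of DSS, a polysaccharide that damages the colonic epithelium, in the drinking water. There were 3 libraries per diet at each of these days. The 4 libraries per diet called day 0 were from mice that received neither AOM nor DSS and ate their diet for 22 or 43 days. At days 22 and 43 all standard diet mice shared 1 cage and all GW3965 mice another, the day 0 mice of each diet had a cage of their own, and the 6 day 70 mice had 6 cages, so that diet and cage cannot be told apart before day 70. Within a diet, treated and untreated mice never shared a cage, so that every change from day 0 is also a change of cage. No untreated mice were collected at day 70. A single day 0 library was titled GW3965 but carried the standard diet in its diet label, and was kept by its title. The labels number replicates without saying that each was a separate mouse, so that every p-value measures the spread between libraries.

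In the crypt, Wnt ligands bind Frizzled and Lrp receptors at the cell surface, β-catenin is spared from degradation, and TCF/LEF factors switch on a set of target genes. Several targets feed back on the pathway: Axin2 rebuilds the β-catenin destruction complex, Nkd1 binds Dishevelled, Rnf43 and Znrf3 are ubiquitin ligases that remove Frizzled from the membrane, and Notum strips the lipid from Wnt ligands. Others mark or maintain stem cells, as Lgr5 (a receptor for R-spondins) and the transcription factor Ascl2 do in the normal colon, and Prox1 is a transcription factor known from intestinal adenomas and from lymphatic endothelium.

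Library totals ran from 18195345 to 41522204 estimated counts (median 20424702). Ribosomal protein genes took 5.33–6.51% of counts in the untreated mice, 6.06–10.7% by day 22, 10.0–18.6% by day 43 and 3.96–6.66% by day 70. RNA integrity numbers were 10 in all day 0 libraries and 6.8–9.3 in the other day 43 libraries, but 2.6 in standard diet day 43 replicate 1, which was also the deepest. All levels below are CPM, counts relative to library sizes scaled by the trimmed mean of M values, and changes are log2 fold changes ± SE from 1 edgeR quasi-likelihood fit over all 26 libraries, with the ribosomal protein percentage as a covariate and a Benjamini–Hochberg threshold of 0.05 over 17063 genes. A fit that gives each diet and day its own slope on this percentage, as the study's model did, was added after the data were seen, and is named where it ends a call. Shares of all genes called come from the first of these fits at its adjusted threshold. Counts of members at an unadjusted p, by DESeq2 or under other fits have no such share unless one is named. They are not to be read against the shares of the first fit. In whole tissue, fewer cells of a type and less RNA per cell cannot be told apart.

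At rest the members differed widely in level. Per transcript length, on the TPM scale, the standard diet day 0 means were 16.6 ± 6.78 (SD, n = 4) for *Nkd1*, 14.8 ± 4.05 for *Axin2*, 14.1 ± 1.53 for *Rnf43* and 9.60 ± 3.58 for *Ascl2*. The lowest was *Notum* at 0.121 ± 0.112, followed by *Prox1* at 0.945 ± 0.331 and *Wif1* at 0.948 ± 0.447, whose spreads overlapped. The stretch before the start of transcription is shown for an intracellular feedback gene, a stem cell factor and a secreted inhibitor, because these began from such different levels and yet were all rich in CpG dinucleotides. Each line gives the 250 bases before the RefSeq start (GRCm38.p6), 5′ to 3′ on the strand of the gene, with CpG in capitals.
*Axin2*, chr11:108920099-108920348, plus strand: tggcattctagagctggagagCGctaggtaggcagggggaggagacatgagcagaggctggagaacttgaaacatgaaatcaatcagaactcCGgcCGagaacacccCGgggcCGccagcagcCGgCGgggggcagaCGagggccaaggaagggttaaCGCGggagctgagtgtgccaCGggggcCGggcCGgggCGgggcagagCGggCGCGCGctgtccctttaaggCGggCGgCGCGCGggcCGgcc
*Ascl2*, chr7:142969265-142969514, minus strand: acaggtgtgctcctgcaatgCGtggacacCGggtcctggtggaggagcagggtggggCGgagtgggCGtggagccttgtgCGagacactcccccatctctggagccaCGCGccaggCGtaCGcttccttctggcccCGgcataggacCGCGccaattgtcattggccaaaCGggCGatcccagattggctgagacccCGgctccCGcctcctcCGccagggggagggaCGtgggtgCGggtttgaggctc
*Wif1*, chr10:121033754-121034003, plus strand: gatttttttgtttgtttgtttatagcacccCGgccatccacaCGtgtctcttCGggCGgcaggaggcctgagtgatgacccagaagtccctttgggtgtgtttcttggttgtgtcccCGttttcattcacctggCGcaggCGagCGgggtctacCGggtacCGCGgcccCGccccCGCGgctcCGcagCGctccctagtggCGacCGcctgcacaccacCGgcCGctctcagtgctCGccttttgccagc
These windows held 24 CpG for *Axin2*, 19 for *Ascl2* and 21 for *Wif1*, against a median of 6 over 32851 RefSeq promoters, and 88.0%, 80.3% and 83.7% of promoters held fewer. The table had 8 promoters for 6 of the 10 members, and their CpG number ran from 2 (one of a pair for *Rnf43*) to 24. The TCF/LEF letters CTTTGAT or CTTTGAA, read on both strands from 250 bases before to 50 bases after the start, were in 0 of these 8 promoters and in 8.65% of all 32851.

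At day 0 the diets overlapped for every member. Of the 10 members 0 passed the test there (edgeR; 0 at an unadjusted p under 0.05, 0 by DESeq2, against 0.0293% of all genes called), and the differences, GW3965 over standard diet, ran from −0.38 ± 1.03 for *Wif1* to 0.60 ± 0.49 for *Ascl2*.

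**Figure D1:**
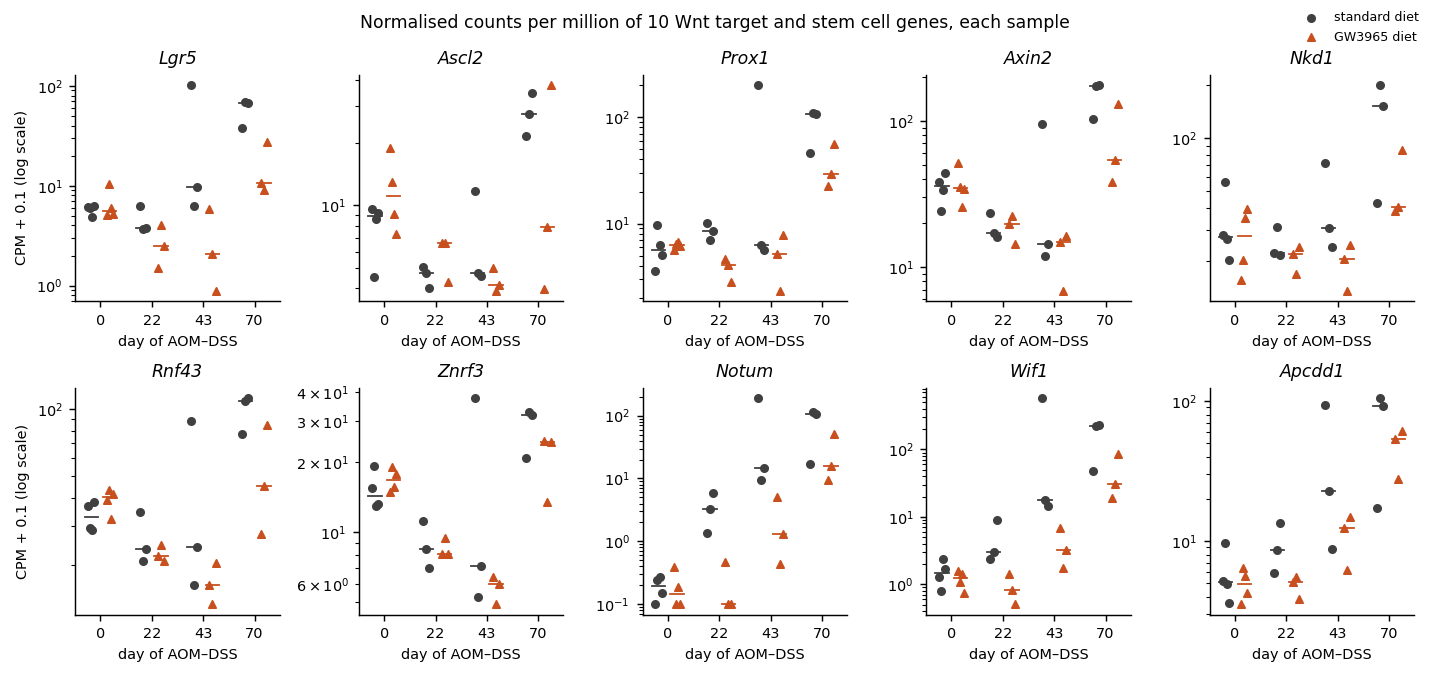
Normalised CPM plus 0.1 on a log axis for each of the 10 genes by day of the AOM–DSS course. Each point is 1 library (circles, standard diet; triangles, GW3965 diet; 4 per diet at day 0 and 3 at the other days) and the short lines are medians. Notum and Wif1 climb from at most 0.295 and 2.30 CPM at day 0. The single high circle at day 43 is the library with an RNA integrity number of 2.6. At day 70 the standard diet median lies above the GW3965 median for every gene, and the diets overlap in all but Lgr5.

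Among the secreted and surface inhibitors, *Notum* and *Wif1* changed most of all members. *Notum*, the carboxylesterase that inactivates Wnt ligands, was nearly silent at day 0, with 0, 0.142, 0.170 and 0.0495 CPM on the standard diet and 0.295, 0, 0.0883 and 0 CPM on the GW3965 diet, which was 8 counts in all in each diet. On the standard diet it reached 1.24, 3.16 and 5.68 CPM at day 22 and 16.7, 115 and 106 CPM at day 70. With GW3965 it stood at 0.374, 0 and 0 CPM at day 22 and 9.26, 15.6 and 50.7 CPM at day 70. All 3 standard diet libraries at day 22 were thus above all 11 other libraries of days 0 and 22, and all 6 day 70 libraries were above those. *Wif1*, which encodes a secreted protein that binds Wnt ligands, ran from 0.708 to 2.30 CPM over the 4 standard diet libraries of day 0 and from 0.646 to 1.47 CPM over those of the GW3965 diet. At day 70 it stood at 47.5, 219 and 233 CPM on the standard diet and at 18.7, 30.5 and 84.8 CPM on the GW3965 diet. The lowest day 70 library therefore lay above every library of days 0 and 22, the highest of which was 9.04 CPM. *Apcdd1*, a membrane glycoprotein that inhibits Wnt receptors, moved less, from 3.52–9.58 CPM at day 0 on the standard diet to 17.2, 105 and 92.8 CPM at day 70. With GW3965 it went from 3.44–6.36 CPM to 53.8, 27.8 and 60.7 CPM. The diets overlapped at day 70 for *Notum*, *Wif1* and *Apcdd1* alike.

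The stem cell genes began from a measurable level. *Lgr5* was at 6.08, 5.85, 4.81 and 6.14 CPM in the standard diet libraries of day 0 and at 38.0, 69.4 and 67.0 CPM at day 70. With GW3965 it was at 4.96, 10.3, 5.82 and 5.17 CPM at day 0 and at 10.5, 8.91 and 27.5 CPM at day 70, so that 2 of its 3 day 70 libraries lay close to the highest day 0 library. It was the one member whose day 70 levels did not overlap between the diets. *Ascl2*, the transcription factor of crypt stem cells, was at 9.51, 4.44, 8.51 and 9.11 CPM at day 0 on the standard diet and at 21.3, 27.3 and 34.5 CPM at day 70. Its day 70 libraries on the GW3965 diet split. At 3.89 CPM replicate 1 lay under the day 0 range of 7.21–18.8 CPM. Replicate 2, at 7.74 CPM, lay within that range, and replicate 3, at 37.7 CPM, above it. *Prox1* went from 3.49–9.58 CPM at day 0 to 45.5, 108 and 106 CPM at day 70 on the standard diet, and from 5.50–6.62 CPM to 22.3, 28.9 and 55.7 CPM on the GW3965 diet.

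The feedback genes inside the cell and at its membrane changed less than these inhibitors. *Axin2* was at 24.1–44.1 CPM at day 0 and at 103, 173 and 176 CPM at day 70 on the standard diet, against 25.7–51.2 CPM and 38.1, 53.7 and 130 CPM on the GW3965 diet. *Nkd1* was at 20.2–55.9 CPM and then 42.8, 199 and 150 CPM on the standard diet, against 15.5–39.5 CPM and 38.6, 40.4 and 84.8 CPM. *Rnf43* was at 28.7–38.1 CPM and then 77.0, 108 and 112 CPM on the standard diet, against 31.9–43.2 CPM and 27.4, 45.2 and 84.5 CPM. *Znrf3*, its close relative, was at 12.9–19.2 CPM and then 20.8, 32.6 and 31.9 CPM on the standard diet, against 14.8–18.9 CPM and 24.7, 13.4 and 24.3 CPM. Within the standard diet at day 70, replicate 1 was the lowest of the 3 libraries for all 10 members, and within the GW3965 diet replicate 3 was the highest for 9 of 10.

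From day 0 to day 70 the group rose on the standard diet. Of the 10 genes, 9 passed the test, all upwards (9 of 10 against 18.1% of the 17063 genes tested called higher), and 9 of 10 had every day 70 library above every day 0 library (against 23.9% of genes). The gene that missed the threshold was *Znrf3* (0.91 ± 0.44, adjusted p = 0.115), and the gene whose libraries overlapped was *Nkd1*. The median change was 2.73 over the 10 members and 0.03 over all genes tested. The changes were 9.59 ± 1.43 for *Notum* (adjusted p = 0.000135), 6.83 ± 1.12 for *Wif1* (adjusted p = 0.000263) and 3.67 ± 0.65 for *Apcdd1* (adjusted p = 0.000443). Among the stem cell genes they were 3.88 ± 0.83 for *Prox1* (adjusted p = 0.0018), 3.31 ± 0.74 for *Lgr5* (adjusted p = 0.00233), a 9.90-fold rise, and 1.81 ± 0.53 for *Ascl2* (adjusted p = 0.0133). The intracellular and membrane feedback genes *Axin2*, *Nkd1* and *Rnf43* rose by 2.15 ± 0.54 (adjusted p = 0.00507), 1.97 ± 0.48 (adjusted p = 0.00407) and 1.59 ± 0.41 (adjusted p = 0.00591). The same 9 genes were called in each of the 7 fits that left out 1 library of the groups compared. With a ribosomal slope for each diet and day, the same 9 were called when the contrast was taken at the mean percentage of the 7 libraries compared (4606 of all genes called), and 0 of 10 when it was taken at the mean of all 26 libraries, 8.28% (0 of all genes called), which lies above every library of days 0 and 70. The *Notum* value rests on 8 counts at day 0, so that its size is poorly fixed.

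**Figure D2:**
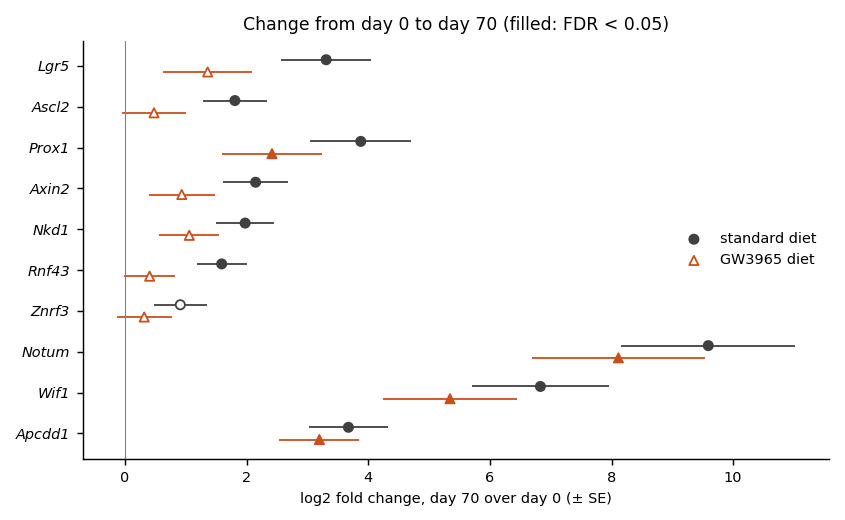
Log2 fold change from day 0 to day 70 (horizontal axis, ± SE) for the 10 genes in the standard diet (circles) and the GW3965 diet (triangles), filled where the adjusted p was under 0.05. Every change is above 0 in both diets, every circle lies to the right of its triangle, and 9 circles but 4 triangles are filled.

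By day 70, 4 of the 10 members rose on the GW3965 diet (against 14.4% of genes called higher), and the same 4 had no overlap between days (against 18.3% of genes). They were the 3 extracellular inhibitors, *Notum* (8.11 ± 1.42, adjusted p = 0.000597), *Wif1* (5.34 ± 1.09, adjusted p = 0.00202) and *Apcdd1* (3.20 ± 0.66, adjusted p = 0.00205), and *Prox1* (2.42 ± 0.82, adjusted p = 0.0396). With a ribosomal slope for each diet and day, none of these 4 calls stood at either percentage (for *Notum*, *Wif1*, *Apcdd1* and *Prox1*, 8.23 ± 3.07, 6.04 ± 2.11, 3.53 ± 1.15 and 3.22 ± 1.64 at the mean of the 7 libraries compared, with 28 of all genes called). The *Prox1* call was also lost under a fit with no filter on low counts, with the replicate block and in 5 of the 7 fits that left out 1 library. The other 6 had estimates above 0 that did not pass, from 0.31 ± 0.45 for *Znrf3* to 1.36 ± 0.73 for *Lgr5* (adjusted p = 0.194), and for *Ascl2* and *Rnf43* the estimate (0.48 ± 0.53 and 0.40 ± 0.42) turned negative without replicate 3, at −1.13 and −0.21. The median was 1.21 over the 10 members and 0.10 over all genes.

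Set directly against each other at day 70, the diets differed in 0 of 10 members (edgeR; 3 at an unadjusted p under 0.05, 0 by DESeq2, against 1.83% of all genes called). All 10 estimates were below 0, GW3965 over standard diet, with a median of −1.15 against 0.02 over all genes. The 3 members with an unadjusted p under 0.05 were *Lgr5* (−1.77 ± 0.80, adjusted p = 0.236), *Nkd1* (−1.18 ± 0.53, adjusted p = 0.238) and *Rnf43* (−0.95 ± 0.45, adjusted p = 0.263). Only *Lgr5* had all GW3965 libraries below all standard diet libraries, 1 of 10 members against 8.53% of genes. The estimates ran from −1.87 ± 1.05 for *Wif1* to −0.45 ± 0.49 for *Znrf3*. With a ribosomal slope for each diet and day, at the mean percentage of the 6 libraries compared, 4 of the 10 estimates were above 0 instead, among them *Apcdd1* (0.91 ± 0.88) and *Notum* (0.41 ± 1.42), and *Lgr5* was at −0.99 ± 1.20. Without GW3965 replicate 3, *Ascl2* alone passed (−2.32 ± 0.50, adjusted p = 0.00956). The test of the difference itself, the change from day 0 to day 70 on the GW3965 diet less that on the standard diet, gave 0 of 10 members (edgeR; 0 at an unadjusted p under 0.05, 0 by DESeq2, 0% of genes called), with estimates from −1.95 ± 1.04 for *Lgr5* to −0.48 ± 0.91 for *Apcdd1*. The larger number of calls on the standard diet is therefore not a difference between the diets that passed its test.

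**Figure D3:**
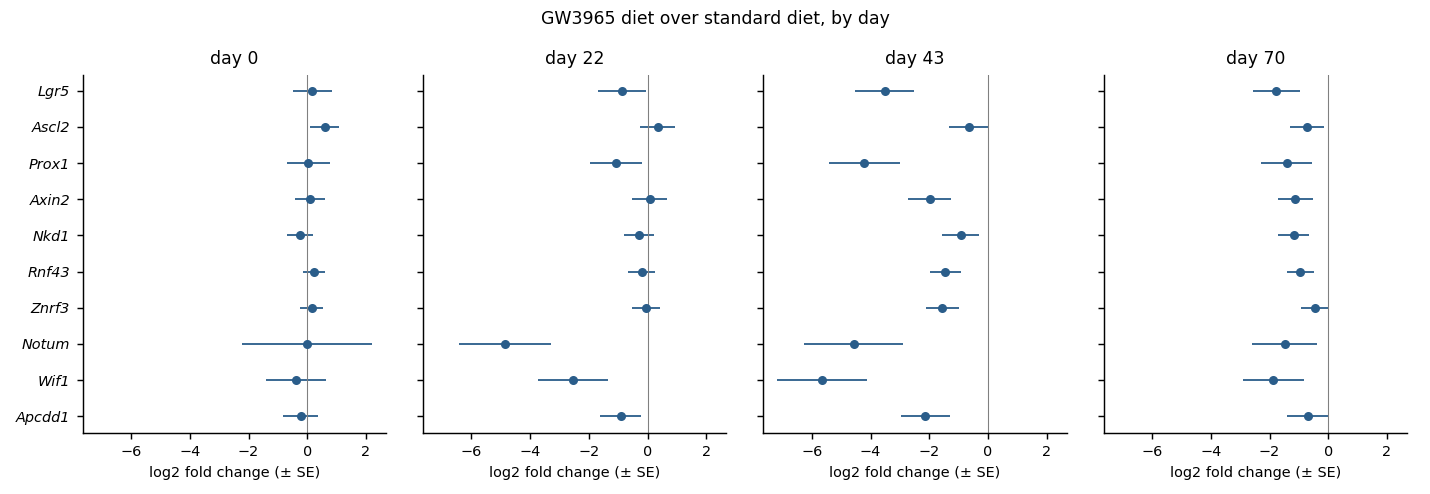
Log2 fold change of the GW3965 diet over the standard diet (horizontal axis, ± SE) for the 10 genes at days 0, 22, 43 and 70. The points lie around 0 at day 0, Notum and Wif1 lie at −4.86 and −2.55 at day 22, and all 10 lie below 0 at days 43 and 70, where none passed the adjusted threshold.

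At day 22, after the first DSS cycle, *Notum* and *Wif1* lay above all day 0 libraries on the standard diet, and *Axin2* and *Znrf3* below those of that diet. On the standard diet 2 of 10 members thus lay above all its day 0 libraries (against 15.9% of genes) and 2 of 10 below (against 11% of genes). On the standard diet *Notum* alone rose from day 0 (4.92 ± 1.48, adjusted p = 0.0459, 1 of 10 members against 6.19% of genes called higher). That call was lost in 11 of 17 alternative fits, at an adjusted p of 0.0548 where protein-coding transcripts alone were counted. *Wif1* was at 2.31, 2.90 and 9.04 CPM at day 22 (1.69 ± 1.06, adjusted p = 0.399). With GW3965, 0 of 10 members passed (edgeR; 0 at an unadjusted p under 0.05, 0 by DESeq2, against 12.6% of genes called), although 6 of 10 had every day 22 library below every day 0 library (against 23% of genes). Those 6 were *Axin2*, *Lgr5*, *Ascl2*, *Rnf43*, *Znrf3* and *Prox1*, with estimates from −0.51 ± 0.88 to −1.54 ± 0.84. With the groups compared alone and no covariate, these 6 passed as lower, in a fit whose share of all genes called is not given.

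Between the diets at day 22, 0 of 10 members passed (edgeR; 2 at an unadjusted p under 0.05, 0 by DESeq2, against 0.135% of genes called). The 2 were *Notum* (−4.86 ± 1.56, adjusted p = 0.237) and *Wif1* (−2.55 ± 1.19, adjusted p = 0.482). *Notum*, *Wif1*, *Prox1* and *Apcdd1* had all 3 GW3965 libraries below all 3 standard diet libraries, 4 of 10 against 11.5% of genes. *Prox1* was at 10.0, 6.88 and 8.42 CPM on the standard diet and at 2.72–4.60 CPM on the GW3965 diet. The summed genes of lymphatic endothelium and of enteroendocrine cells, which also express it, overlapped between the diets, and the 6 lymphatic genes summed to 315–344 CPM on the standard diet and 294–352 CPM on the GW3965 diet. The difference between the diets in the change from day 0 passed in 0 of 10 members (edgeR; 0 at an unadjusted p under 0.05, 0 by DESeq2, against 0.0234% of genes called).

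Day 43, after the second DSS cycle, was the least certain time. In the standard diet replicate 1 was the highest of the 3 libraries for all 10 members, with 577 CPM of *Wif1* against 17.5 and 14.2 CPM, 190 CPM of *Notum* against 9.42 and 14.4 CPM, 201 CPM of *Prox1* against 6.16 and 5.57 CPM, and 102 CPM of *Lgr5* against 6.10 and 9.70 CPM. For 5 of the 10 members this low-integrity library held the highest level of all 26. Against day 0 none of the 10 passed on the standard diet by edgeR, where 0% of genes were called. DESeq2 called 2, *Notum* and *Wif1*, and 4 had an unadjusted p under 0.05 by edgeR. Those 4 were *Notum* (8.28 ± 3.49, adjusted p = 0.523), *Wif1* (6.93 ± 2.78), *Apcdd1* (3.50 ± 1.47) and *Prox1* (4.61 ± 1.99), and without replicate 1 the estimates of *Axin2*, *Lgr5*, *Rnf43* and *Znrf3* turned from above to below 0. The ribosomal protein percentage, for which the fit adjusts, was higher in all 6 day 43 libraries than in all 8 day 0 libraries. Without that covariate, *Notum*, *Wif1* and *Apcdd1* passed as higher at day 43 both with and without replicate 1, *Lgr5* and *Prox1* only with it, and *Axin2* and *Znrf3* passed as lower only without it. The shares of all genes called without the covariate are not given.

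The transcripts behind the counts also shifted at day 43. In the standard diet only 14.6%, 29.8% and 34.3% of the *Axin2* counts fell on its protein-coding transcripts, against 62.8–100% in the 20 libraries of the other days. For *Wif1* the shares were 10.1%, 37.1% and 37.5%, against 55.4–100% in the 16 such libraries with at least 20 counts, and for *Notum* 27.4%, 32.6% and 27.6%, against 38.6–100% in 9. The remainder lay on retained-intron or other non-coding transcripts, chiefly 1 retained-intron transcript for *Wif1*. That transcript took 89.1% of the *Wif1* counts of the 3 standard diet libraries at day 43 together and 6.30% at day 70. Of the 19158 *Wif1* counts at day 43 on this diet, replicate 1 held 18567. The GW3965 libraries of day 43 were mixed, with 57.1%, 34.6% and 89.5% for *Axin2*. Over all protein-coding genes together, the share on protein-coding transcripts was 92.3–93.4% in the standard diet libraries of day 43. That was below every library of days 0, 22 and 70. The share was 93.4–94.7% in the GW3965 libraries of day 43 and 93.7–94.7% at day 22, which overlapped. It was 95.4–96.0% at day 0 and 95.1–96.1% at day 70. On protein-coding transcripts alone, *Axin2* was at 13.8, 3.50 and 4.91 CPM in the standard diet at day 43 and at 101, 156 and 164 CPM at day 70. *Rnf43* moved the other way, with 96.8%, 91.6% and 93.5% on protein-coding transcripts in the standard diet at day 43 against 70.4–86.9% in the 20 libraries of the other days. Its leading transcript, which is protein-coding, took 5.17% of the *Rnf43* counts of those 3 libraries together. On the same diet it took 53.7% at day 0 and 51.9% at day 70. Replicate 1 held 2832 of the 3581 *Rnf43* counts at day 43 on this diet. *Lgr5* kept 92.1–99.3% of its counts on protein-coding transcripts in those day 43 libraries, and all counts of *Prox1*, *Nkd1*, *Ascl2* and *Znrf3* fell on protein-coding transcripts in every library. The part in this of the RNA integrity and ribosomal percentages given above was not tested. At day 70 counting protein-coding transcripts alone gave 9 members on the standard diet and 4 on the GW3965 diet.

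**Figure D4:**
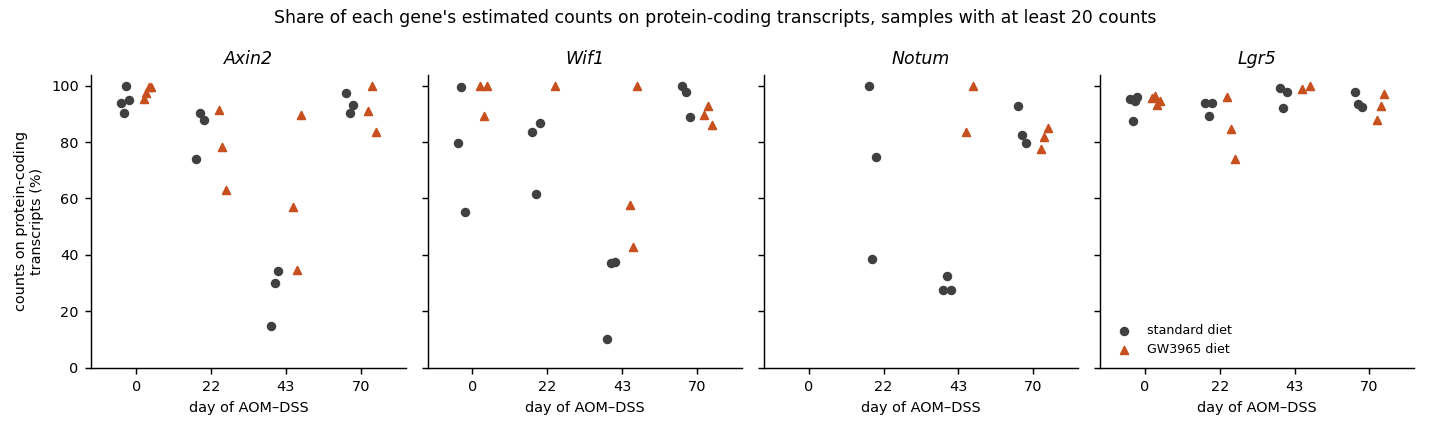
Percentage of each gene's estimated counts that fell on protein-coding transcripts, by day, for Axin2, Wif1, Notum and Lgr5. Each point is 1 library with at least 20 counts of the gene (circles, standard diet; triangles, GW3965 diet). The standard diet circles of day 43 lie between 10.1 and 37.5% for Axin2, Wif1 and Notum and above 92% for Lgr5.

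In the GW3965 libraries of day 43, *Axin2*, *Ascl2*, *Rnf43* and *Znrf3* lay below every GW3965 library of day 0, 4 of 10 members against 26.6% of genes. *Lgr5* was at 5.82, 1.96 and 0.784 CPM, *Ascl2* at 4.94, 3.79 and 4.07 CPM and *Axin2* at 14.7, 6.76 and 16.3 CPM. *Notum* at 5.05, 0.338 and 1.22 CPM and *Wif1* at 1.62–6.76 CPM lay above every GW3965 library of day 0, 2 of 10 members against 30.8% of genes. Against day 0, 0 of 10 members passed (edgeR; 0 at an unadjusted p under 0.05, 0 by DESeq2, against 0.938% of genes called). Between the diets at day 43, 0 of 10 passed by edgeR, against 0.0293% of genes called. An unadjusted p under 0.05 by edgeR was reached by 8 members. DESeq2 called 3, *Lgr5*, *Wif1* and *Prox1*, and no share of all genes is given for either count. *Lgr5* (−3.52 ± 1.01, adjusted p = 0.45), *Notum* (−4.57 ± 1.68, adjusted p = 0.508) and *Wif1* (−5.65 ± 1.53, adjusted p = 0.444) had no overlap, 3 of 10 members against 4.2% of genes. The 6 fibroblast genes summed to 3892–4854 CPM on the standard diet and 1579–2781 CPM on the GW3965 diet at this day, without overlap, and the 6 immune cell genes to 3513–10942 and 2032–5929 CPM, against 278–619 CPM over all 8 libraries of day 0. Their part in the differences between the diets was not tested. Without standard diet replicate 1 these members' differences became −1.19 ± 0.68, −2.03 ± 1.24 and −2.09 ± 0.85. Without standard diet replicate 2 instead, 6 members passed as lower: *Axin2*, *Lgr5*, *Rnf43*, *Znrf3*, *Wif1* and *Prox1*. That fit keeps replicate 1, the library of RNA integrity 2.6, which was the highest of its group for all 10 members. The share of all genes called in that fit is not given. The difference between the diets in the change from day 0 to day 43 passed in 0 of 10 (edgeR; 6 at an unadjusted p under 0.05, 0 by DESeq2, 0% of genes called).

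The steps between neighbouring days gave 0 calls among the 10 members in each case. From day 22 to day 43 this was so on the standard diet (edgeR; 2 at an unadjusted p under 0.05, 0 by DESeq2, 0% of genes called) and on the GW3965 diet (edgeR; 0 at an unadjusted p under 0.05, 0 by DESeq2, against 0.147% of genes called). From day 43 to day 70 it was so on the standard diet (edgeR; 0 at an unadjusted p under 0.05, 0 by DESeq2, 0% of genes called). On the GW3965 diet at that step (edgeR; 2 at an unadjusted p under 0.05, 0 by DESeq2, 0% of genes called) all 10 estimates were above 0 and 9 of 10 members had every day 70 library above every day 43 library (against 21.9% of genes), the exception being *Ascl2*. Without the ribosomal covariate all 10 passed there, in a fit whose share of all genes called is not given. The ribosomal protein percentage was 10.0–17.6% in the GW3965 libraries of day 43 and 3.96–5.45% in those of day 70.

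The marker genes of other tissues changed over the same days. All 8 epithelial genes and all 9 genes of differentiated colonocytes and goblet cells were detected in every library. The 8 genes of stratified epithelium and skin (keratins *Krt5*, *Krt14*, *Krt6a*, *Krt13* and *Krt10*, with *Trp63*, *Dsg3* and *Sbsn*) summed to 6.86–12.1 CPM over the 8 libraries of day 0, where *Krt6a* was at 0 in all 8 and *Krt13* in 2, and to 3146–4424 CPM at day 70 on the standard diet, and all 8 of 8 rose. In the GW3965 libraries of day 70 the sum was 21475, 7.85 and 13435 CPM, and 8 of 8 rose there too. Replicate 2 of that group, with the sum of 7.85 CPM, held 15.6 CPM of *Notum*, 30.5 CPM of *Wif1*, 28.9 CPM of *Prox1* and 27.8 CPM of *Apcdd1*, each above every day 0 library. The part of the stratified epithelium in the members' levels was not tested. Skeletal muscle genes summed to 20658 CPM in GW3965 replicate 1 of day 70, which also had the lowest sum of 8 epithelial genes, 2879 CPM, while standard diet replicate 1 had the highest, 18627 CPM. Per 1000 CPM of those epithelial genes, *Lgr5* was at 2.04, 8.33 and 6.99 CPM on the standard diet and 3.64, 0.906 and 2.69 CPM on the GW3965 diet at day 70, so that the diets overlapped on this scale. *Wif1* on the same scale was at 2.55, 26.3 and 24.3 CPM and at 6.49, 3.11 and 8.31 CPM, all above the 0.0720–0.248 CPM of day 0.

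**Figure D5:**
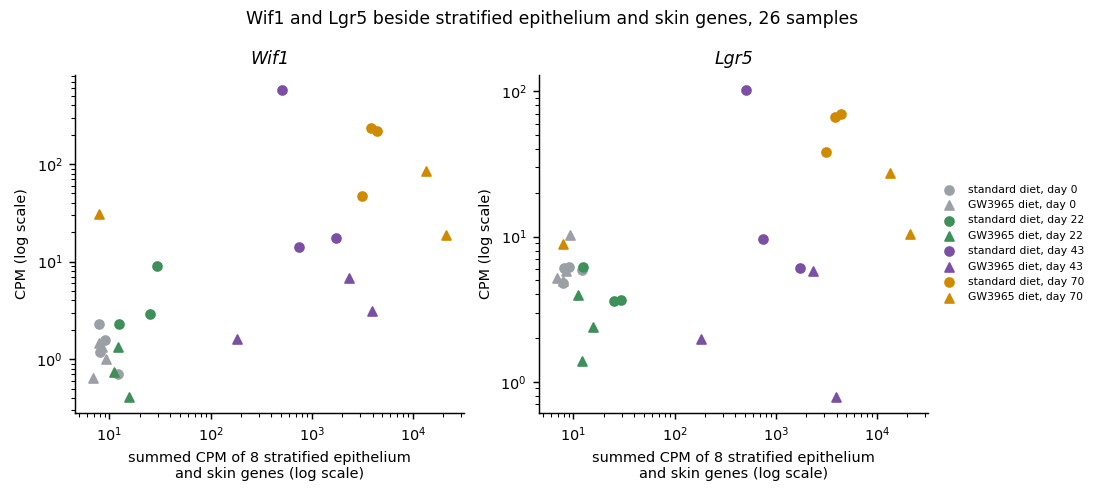
Wif1 and Lgr5 CPM (vertical, log axis) against the summed CPM of 8 stratified epithelium and skin genes (horizontal, log axis) in the 26 libraries, coloured by day, with circles for the standard diet and triangles for the GW3965 diet. One day 70 triangle with a skin sum of 7.85 CPM holds 30.5 CPM of Wif1, and the highest Wif1 point, 577 CPM, has a skin sum of 506 CPM.

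The rest of the pathway did not move as 1 block. Of 14 further Wnt targets tested, 10 rose and 1 fell by day 70 on the standard diet, and 6 rose and 1 fell on the GW3965 diet. The calls with the smallest p were *Mmp7*, a metalloproteinase of intestinal tumours (10.99 ± 1.29 on the standard diet, 10.05 ± 1.29 on the GW3965 diet), the surface receptor *Cd44* (2.33 ± 0.32 and 2.73 ± 0.33) and the transcription factor *Sp5* (8.43 ± 1.19 and 7.31 ± 1.14). Of 12 further crypt stem and progenitor genes, 8 rose and 1 fell on the standard diet, led by *Mex3a* (3.62 ± 0.54) and *Msi1* (3.13 ± 0.49), both RNA-binding proteins. On the GW3965 diet 3 rose and 1 fell, among them *Olfm4* (8.20 ± 1.13), a secreted glycoprotein of crypt progenitors. All 8 proliferation genes rose on the standard diet and 5 of 8 on the GW3965 diet, with *Top2a* at 1.85 ± 0.34 and 1.58 ± 0.35. These lists differ in size and were chosen by hand, and each can be read only beside the 33.2% of all genes called in either direction on the standard diet and the 21.8% on the GW3965 diet.

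Ligands and receptors went both ways. Of 15 Wnt ligands tested, 6 rose and 3 fell in each diet: *Wnt10a* rose on both (7.78 ± 1.23 and 7.27 ± 1.23), *Wnt3*, a ligand made by Paneth cells in the small intestine, did too (4.94 ± 0.95 and 3.34 ± 0.97), and *Wnt2b*, a stromal ligand, fell on both (−2.54 ± 0.40 and −1.70 ± 0.40). Of 3 R-spondins, which potentiate Wnt by engaging Lgr receptors, *Rspo3* (−1.93 ± 0.40) and *Rspo2* (−2.74 ± 0.79) fell on the standard diet and 0 of 3 were called on the GW3965 diet. Of 14 receptors 4 rose and 3 fell on the standard diet and 3 rose and 1 fell on the GW3965 diet, where *Lgr6*, which marks stem cells of the skin, rose in both (4.65 ± 0.83 and 5.60 ± 0.86). Among 8 other secreted inhibitors *Dkk2* rose in both diets (3.45 ± 0.93 and 3.08 ± 0.96) and *Sfrp5* fell on the standard diet (−3.26 ± 0.60). Of 14 intracellular pathway genes 3 rose and 1 fell on the standard diet, with β-catenin itself, *Ctnnb1*, at 0.65 ± 0.21, and 1 fell on the GW3965 diet. Of 9 genes of differentiated colonocytes and goblet cells, 6 fell and 1 rose on the standard diet and 5 fell on the GW3965 diet, as in the carbonic anhydrase *Car4* (−5.97 ± 0.86 and −4.14 ± 0.79). All 6 smooth muscle genes fell on the standard diet and 2 of 6 on the GW3965 diet, and 1 of 8 epithelial genes rose on the standard diet and none on the GW3965 diet. Of the 6 lymphatic genes 4 fell and 1 rose on the standard diet, so that *Prox1* moved against most genes of the lymphatic list on that diet. On the GW3965 diet these 6 genes summed to 213–287 CPM at day 70 and 276–397 CPM at day 0, which overlapped. The part of lymphatic endothelium in the *Prox1* level was not tested. Of 6 enteroendocrine genes 2 fell in each diet. Of 6 fibroblast genes 1 rose and 1 fell on the standard diet and 3 rose on the GW3965 diet, and of 6 immune cell genes 2 rose and 1 fell and then 4 rose. Between the diets at day 70, none of the genes of these lists passed except *Ptprc* (2.04 ± 0.46) and *Cd79a* (4.04 ± 0.94) of the 6 immune cell genes, both higher on the GW3965 diet.

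Across the 26 libraries the members followed each other to different degrees. Pearson correlations of log2 CPM over the 45 pairs ran from 0.35 (*Notum* and *Znrf3*) to 0.97 (*Axin2* and *Rnf43*), with a median of 0.78, and 0.76 without the library of RNA integrity 2.6. *Notum* and *Wif1* were at 0.96 and *Wif1* and *Apcdd1* at 0.93. These points share day, diet, cage, depth and tissue content, and describe the libraries only. Outside the list, the genes most like *Lgr5* were *Smoc2* (0.93), *Sox4* (0.92) and *Scn2b* (0.90). *Prox1* was also closest to *Sox4* (0.95), followed by *Tbx3* and *Abcc4* (both 0.94). *Wif1* was closest to *Ascl4* (0.97), *Evx1* and *T* (both 0.96), and *Notum* to *Slc9a4* (0.95), *Sp5* and *Evx1* (both 0.94). Among the feedback genes, *Axin2* was closest to *Usp22* (0.96), *Znrf3* to *Gtf2i* (0.97), *Rnf43* to *Ets2* (0.95) and *Nkd1* to *Spock2* (0.91). *Ascl2* was closest to *Slc31a1* (0.90) and *Apcdd1* to *Slc30a2* (0.93).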

How the data were processed

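Each of the 26 libraries was quantified by the authors with kallisto against GRCm38 (per the labels). The deposited files give an expected count and a TPM value per transcript, and 97.8% of the 119414 transcripts matched GENCODE M21 and were summed to 35975 genes. Unmatched transcripts held 0.615–0.999% of counts. Summed counts were rounded to whole numbers and tested with edgeR 4.0.16 (quasi-likelihood F-test, TMM, filterByExpr over 8 groups, 17063 genes kept) for 17 contrasts: 5 between days within each diet, 4 between diets and 3 of the difference in change from day 0. The share of counts from 88 ribosomal protein genes, in percent, entered as an additive covariate. It stands in for the ribosomal RNA percentage of the study, whose model let it interact with diet and time. That model, with 16 coefficients and 10 residual degrees of freedom, was run as an alternative added after seeing the data. SE is the change over the root of F. At 18195345 or more counts per library, a count of 1 is under 0.1 CPM. CPM use TMM-scaled library sizes, and log2 CPM for correlations a prior count of 2. DESeq2 1.42.0 was an alternative, with the settings named in the closing section. The procedure was tested on simulated counts. Same-numbered replicates did not deviate together (13 pairs, mean correlation −0.07, from −0.37 to 0.20), so that the reported fit has no block. No libraries had identical values. The members and gene lists were chosen with earlier results of these data known. In each list at most 3 genes per comparison, those of smallest p among the calls, are named, and for each member up to 3 genes of highest correlation. Promoters are from RefSeq.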

Additional observations from a re-analysis of the deposited data

Results flagged for a closer look

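*Ascl2* in standard diet day 0 (22 diet days, replicate 2) drew attention because this library, at 4.44 CPM, lay far below the other 3 of its group, at 8.51–9.51 CPM. Its gap on the log2 CPM scale was 0.853 of the group's range, above Dixon's 95% critical value for 4 samples. On the CPM scale the ratio was 0.802, below that value. On the log2 scale it was the only such library among 20 gene and group sets tested, where chance alone gives about 1 in 20. The call of *Ascl2* at day 70 on the standard diet stood without this library (1.61 ± 0.57, adjusted p = 0.0458 by edgeR).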

How the results depend on the processing

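The 9 calls at day 70 on the standard diet stood under every alternative run except a ribosomal slope for each diet and day read at the mean of all libraries. *Znrf3* joined them as a 10th where only the groups compared entered with no covariate. The 4 on the GW3965 diet were the same or lacked *Prox1*, except with a ribosomal slope for each diet and day. That fit, added after seeing the data, gave 0 members called in all 17 comparisons when read at the mean percentage of all libraries (0 against 9 on the standard diet and 0 against 4 on the GW3965 diet at day 70, and 0 against 1 at day 22 on the standard diet). Read at the mean of the groups compared it gave 9, 0 and 0 for these and 0 elsewhere. The mean over all libraries, 8.28%, lies outside the range of every group but those of day 22. Calls of members elsewhere moved as follows, against 0 unless stated. No share of all genes called is given for these fits, so that the counts cannot be read as particular to the members. Without the ribosomal covariate, 5 passed on the standard diet for day 43 over day 0, 5 for day 43 over day 22 and 4 for day 70 over day 43, and on the GW3965 diet 5 for day 43 over day 0 and 10 for day 70 over day 43. With only the groups compared and no covariate the counts were 2 on the standard diet at day 22 (against 1), 5 for day 43 over day 0 and 1 for day 70 over day 43, and on the GW3965 diet 6 at day 22, 6 at day 43 and 7 for day 70 over day 43. DESeq2 gave 2 on the standard diet for day 43 over day 0 and 3 between the diets at day 43. With no filter, with the replicate block and with protein-coding transcripts alone, the *Notum* call at day 22 was lost (0 against 1). The replicate block, on numbers that do not pair the libraries, also lost *Prox1* on the GW3965 diet at day 70 and changed no other call. Leaving out 1 library gave 0 to 1 calls at day 22 on the standard diet, 0 to 1 for day 70 over day 43 there (*Znrf3*, without replicate 1 of day 43), 0 to 6 between the diets at day 43, 0 to 1 between them at day 70 and 0 to 1 for the difference in change to day 70 (*Ascl2* in both, without GW3965 replicate 3). Other settings added after seeing the data were no covariate without standard diet day 43 replicate 1 (5 for day 43 over day 0 and 10 for day 70 over day 43 on the standard diet) and protein-coding transcripts with no covariate (on the standard diet 6, 5 and 4 for day 43 over day 0, day 43 over day 22 and day 70 over day 43, on the GW3965 diet 4 for day 43 over day 0 and 10 for day 70 over day 43, and 1, *Lgr5*, between the diets at day 43).

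Apart from the fits with a ribosomal slope for each diet and day, directions turned chiefly at day 43 over day 0 on the standard diet. *Nkd1* (reported as −0.14) was at 0.37 with no covariate, 0.34 with the groups compared alone and 0.47 with protein-coding transcripts and no covariate, and *Znrf3* (reported as 0.13) was at −0.25 with the replicate block. *Axin2* (reported as 1.07) was at −0.20 with protein-coding transcripts and −2.04 with these and no covariate, where its difference between the diets (reported as −1.98) was 0.12. Without replicate 1 and the covariate *Axin2* was at −1.43, *Rnf43* at −0.73, *Znrf3* at −1.32 and *Prox1* at −0.050. Leaving out 1 library moved *Axin2* from −0.66 to 2.24, *Lgr5* from −0.54 to 3.33, *Rnf43* from −0.53 to 1.63, *Znrf3* from −1.35 to 1.20, *Nkd1* from −0.65 to 0.28 and *Ascl2* from −0.91 to 0.18. On the GW3965 diet at day 70 it moved *Ascl2* from −1.13 to 0.90 and *Rnf43* from −0.21 to 0.68. With a ribosomal slope for each diet and day more directions turned. Read at the mean of all libraries, *Lgr5*, *Rnf43*, *Prox1* and *Apcdd1* turned to 0.12, 0.35, −1.52 and −0.31 at day 22 on the standard diet, and *Axin2*, *Ascl2*, *Rnf43*, *Znrf3* and *Prox1* to −0.60, 0.27, −0.42, −1.58 and −2.85 at day 43. Between the diets *Axin2*, *Rnf43*, *Znrf3* and *Prox1* turned to 0.85, 0.79, 0.44 and 1.89 at day 43, and *Axin2*, *Lgr5*, *Notum*, *Ascl2*, *Rnf43*, *Wif1* and *Prox1* to 1.97, 0.90, 0.72, 5.27, 1.68, 0.34 and 0.30 at day 70. Read at the mean of the groups compared, *Lgr5* and *Rnf43* turned to 0.018 and 0.095 at day 22 on the standard diet, *Notum*, *Ascl2*, *Znrf3* and *Prox1* to −2.78, 0.86, −1.08 and −3.22 at day 43, and between the diets at day 70 *Notum*, *Nkd1*, *Ascl2* and *Apcdd1* to 0.41, 0.16, 0.22 and 0.91. The cause of these shifts was not tested. With 3 libraries per group, differences of about 1 on the log2 scale between diets had SE of 0.45 to 1.11 at day 70.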
